A study of Mus musculus with 12 samples.

Results

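Tmub2, Cyb561, Vamp2, Rnf187 and 2610507I01Rik are 5 genes of mouse chromosome 11, the chromosome that also carries Sox9, and were picked from the 16116 genes measured because their RNA differed with the number of floxed Sox9 alleles in a pair of hepatocyte experiments. They were chosen from these same values, so their levels and differences are given as a description, with no test. None of the 5 followed the allele number step by step over 0, 1 and 2 alleles. What they shared was a large difference between 2 and 1 floxed alleles that had the same direction in both experiments. Tmub2 and Cyb561 were lower with 2 alleles, and Vamp2, Rnf187 and 2610507I01Rik were higher with 2 alleles.

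Liver cells were taken from mice that received adeno-associated virus (AAV, serotype 2/8) by retro-orbital injection at 3 weeks of age, and sorted hepatocytes were measured in 2 libraries for each of 6 groups. In the YAP experiment, Sox9_cko mice were Sox9 fl/fl, Sox9_het mice were Sox9 fl/+ and WT_GFP mice were wild type, and cells were sorted 3 weeks after injection. The first and second of these groups received AAV2/8-TBG-Cre together with AAV2/8-TBG-YAP S127A-P2A-GFP, and WT_GFP mice received AAV2/8-TBG-GFP. In the Mst experiment, all mice carried Mst1 fl/fl, Mst2 fl/fl and ROSA26-lsl-TdTomato, and cells were sorted 4 weeks after injection. TKO_Sox9 mice were also Sox9 fl/fl and DKO_Sox9_het mice also Sox9 fl/+, both given AAV2/8-TBG-Cre, while Mst1_2_fl_GFP mice, whose genotype names no floxed Sox9, received AAV2/8-TBG-GFP. TBG is a hepatocyte promoter, so Cre and YAP were driven in hepatocytes, whereas a floxed allele is carried by the whole animal. Sorted cells were GFP+ or TdTomato+ and negative for Epcam and CD45. Groups with 2 and 1 floxed alleles differed in that number alone by their labels, but the groups with 0 alleles also lacked Cre and, in the YAP experiment, the active YAP. No library held floxed Sox9 without Cre, so the floxed allele, its recombination and loss of the SOX9 protein cannot be told apart. Whether the 2 libraries of each group stem from different mice is not stated in the labels, so an SD or p-value covers the spread between libraries only.

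SOX9 is a transcription factor of the bile duct lineage, and hepatocytes switch it on when YAP becomes active. MST1 and MST2 are the kinases of the Hippo pathway that hold YAP back, and the S127A form of YAP escapes this control. A floxed allele is a normal copy of a gene flanked by recombination sites, which Cre joins so that the stretch between them is lost. Genes on the same chromosome tend to be inherited together, the more so the closer they lie.

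The panel reads 1 amplicon per gene, and its values were deposited as log2 CPM, a read number per library size on a log2 scale. In linear form the libraries summed to between 879620 and 1011693, and 9919 to 10392 genes per library reached log2 1. Gene by gene, the WT_GFP and Mst1_2_fl_GFP means were equal to within a median of 0.00849, so their levels are not separate measurements of a control. In 16080 genes the gaps between a library and the mean of its group fell on multiples of 1 step, and that step pointed to a rescaling of these gaps by a median factor of 1.58. For the 5 genes, this factor lay between 0.815 in Rnf187 and 2.44 in Tmub2. It changes the errors and the overlap of libraries, but not the group means on the log2 scale. Means in linear CPM shift with it. Markers of hepatocytes (6 of 8 kept) summed to 49806 to 88070 CPM in Sox9_cko, 60728 to 62842 CPM in Sox9_het and 54488 to 71599 CPM in WT_GFP libraries. Libraries of the Mst experiment lay between 56989 and 67803 CPM. Endothelial markers (6 of 6 kept) summed to 71.1 to 182 CPM in Sox9_cko, 71.3 to 91.5 CPM in Sox9_het and 18.1 to 31.0 CPM in WT_GFP libraries, and to 186 to 215 CPM in both TKO_Sox9 and DKO_Sox9_het and 21.6 to 25.5 CPM in Mst1_2_fl_GFP libraries. Macrophage and leukocyte markers (6 of 6 kept) summed to 39.6 to 40.7 CPM in Sox9_cko, 23.6 to 26.9 CPM in Sox9_het and 14.4 to 35.2 CPM in WT_GFP libraries. The same markers summed to 49.4 to 111 CPM in TKO_Sox9, 27.7 to 51.9 CPM in DKO_Sox9_het and 18.9 to 21.7 CPM in Mst1_2_fl_GFP libraries. Cholangiocyte markers (3 of 6 kept) summed to 1228 to 1305 CPM in Sox9_cko, 1750 to 2438 CPM in Sox9_het and 141 to 332 CPM in WT_GFP libraries, and to 3623 to 3750 CPM in TKO_Sox9, 3069 to 3156 CPM in DKO_Sox9_het and 197 to 223 CPM in Mst1_2_fl_GFP libraries. Stellate markers (4 of 6 kept) summed to 21.4 to 45.1 CPM in Sox9_cko, 29.3 to 30.5 CPM in Sox9_het and 14.9 to 22.1 CPM in WT_GFP libraries, and to 65.4 to 76.8 CPM in TKO_Sox9, 51.8 to 62.9 CPM in DKO_Sox9_het and 16.7 to 19.4 CPM in Mst1_2_fl_GFP libraries. The part of these markers in the levels of the 5 genes was not tested, and in bulk samples fewer cells of a type and less RNA per cell cannot be told apart.

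The targeted gene itself, Sox9 (chromosome 11, 112782224 to 112787760, plus strand, GRCm38), stood at log2 CPM 2.28 and 2.62 in Sox9_cko, 4.41 and 5.28 in Sox9_het and 3.90 and 3.59 in WT_GFP libraries. It stood at 1.41 and 1.29 in TKO_Sox9, 6.47 and 6.0 in DKO_Sox9_het and 4.33 and 3.13 in Mst1_2_fl_GFP libraries. In both experiments it was lowest with 2 floxed alleles and highest with 1, and no libraries overlapped between these groups. Its level in the controls lay between them, so Sox9 did not follow the allele number step by step either.

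Tmub2 encodes a membrane protein with a ubiquitin-like domain. It lies at 102284931 to 102289237 on the plus strand of chromosome 11 (GENCODE M21, GRCm38), with its start 10.5 Mb from that of Sox9. Tmub2 stood at log2 CPM 0.68 and 0.68 in Sox9_cko libraries, against 5.13 and 4.72 in Sox9_het and 4.98 and 4.98 in WT_GFP libraries. It stood at 0.62 and 0.40 in TKO_Sox9 libraries, against 4.90 and 4.90 in DKO_Sox9_het and 4.89 and 5.11 in Mst1_2_fl_GFP libraries. The 4 libraries with 2 floxed alleles all lay near log2 0.5 and the other 8 near log2 5, with nothing between. With 1 floxed allele the libraries overlapped those of the control. In linear CPM the Sox9_cko mean was 5.05% and the Sox9_het mean 96.8% of the WT_GFP mean, and the TKO_Sox9 mean was 4.47% and the DKO_Sox9_het mean 93.1% of the Mst1_2_fl_GFP mean. The difference of 2 from 1 alleles was -4.24 in the YAP experiment and -4.38 in the Mst experiment (log2, limma SE 0.27 each), or 19-fold and 20.9-fold lower. These folds rest on 2-allele libraries at 1.32 to 1.60 CPM, and with 1 CPM added to every value the log2 differences were -3.59 and -3.67. In order of mean level, TKO_Sox9 (0.51 ± 0.16, SD, n = 2) came just below Sox9_cko (0.68), and DKO_Sox9_het (4.90), Sox9_het (4.92 ± 0.29), WT_GFP (4.98) and Mst1_2_fl_GFP (5.0 ± 0.16) followed within the spread of their libraries. No other of the 10681 genes kept for testing differed as much on average over both experiments.

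Cyb561 encodes a membrane cytochrome that passes electrons from ascorbate across membranes, known from the secretory vesicles of neuroendocrine cells. It lies at 105933702 to 105953336 on the minus strand, 6.85 Mb from Sox9 and 3.65 Mb from Tmub2 between starts. It overlaps Gm9910, a gene model on the opposite strand that has no row in the table. Cyb561 stood at log2 CPM 2.31 and 2.60 in Sox9_cko, 3.85 and 4.45 in Sox9_het and 3.91 and 3.34 in WT_GFP libraries. It stood at 3.73 and 4.06 in TKO_Sox9, 5.61 and 6.05 in DKO_Sox9_het and 4.01 and 3.19 in Mst1_2_fl_GFP libraries. Libraries with 2 alleles lay below those with 1 in each experiment, but the group that stood away from its control was a different one. Sox9_cko was below WT_GFP at 43.9% of its linear mean, while Sox9_het at 144% overlapped it. DKO_Sox9_het was above Mst1_2_fl_GFP at 457% of its linear mean, while TKO_Sox9 at 119% overlapped it. The difference of 2 from 1 alleles was -1.69 in the YAP experiment and -1.93 in the Mst experiment (SE 0.33 each). By mean level, Sox9_cko (2.45 ± 0.20) was lowest and DKO_Sox9_het (5.83 ± 0.31) highest. Mst1_2_fl_GFP (3.6 ± 0.58), WT_GFP (3.62 ± 0.40), TKO_Sox9 (3.89 ± 0.24) and Sox9_het (4.15 ± 0.42) lay between, each within the spread of its neighbour (SD, n = 2).

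Vamp2 encodes synaptobrevin, the SNARE protein on vesicles that drives their fusion with the plasma membrane in regulated secretion. It lies at 69088490 to 69092384 on the plus strand, 43.7 Mb from Sox9. Vamp2 stood at log2 CPM 3.56 and 4.52 in Sox9_cko libraries, -0.81 and -0.93 in Sox9_het libraries and 3.88 and 2.87 in WT_GFP libraries. It stood at 6.27 and 4.92 in TKO_Sox9, 2.21 and 1.96 in DKO_Sox9_het and 2.53 and 4.14 in Mst1_2_fl_GFP libraries. The groups with 1 floxed allele were the low ones in both experiments, below every control library of their experiment. The gap of DKO_Sox9_het from Mst1_2_fl_GFP was -1.25, and it ranged from -2.06 without the first control library to -0.45 without the second. Sox9_cko overlapped WT_GFP, whereas both TKO_Sox9 libraries lay above Mst1_2_fl_GFP. In linear CPM, Sox9_cko was at 158% and Sox9_het at 4.96% of WT_GFP, and TKO_Sox9 was at 457% and DKO_Sox9_het at 36.3% of Mst1_2_fl_GFP. The difference of 2 from 1 alleles was 4.91 in the YAP experiment and 3.51 in the Mst experiment (SE 0.53 each), or 30.2-fold and 11.4-fold higher. In the order of means, Sox9_het (-0.87 ± 0.09) and DKO_Sox9_het (2.08 ± 0.18) stood apart at the low end. Mst1_2_fl_GFP (3.34 ± 1.14), WT_GFP (3.38 ± 0.72) and Sox9_cko (4.04 ± 0.68) were within their spread, and TKO_Sox9 (5.59 ± 0.95) was highest (SD, n = 2).

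2610507I01Rik is annotated as a processed transcript that encodes no protein, at 59199836 to 59202385 on the minus strand, 53.6 Mb from Sox9. It stood at log2 CPM 2.46 and 3.35 in Sox9_cko, -1.74 and -1.74 in Sox9_het and 3.07 and 2.31 in WT_GFP libraries. It stood at 5.48 and 4.51 in TKO_Sox9, 1.98 and 1.89 in DKO_Sox9_het and 2.12 and 3.18 in Mst1_2_fl_GFP libraries. The 1-allele groups had the lowest means, Sox9_het at 4.46% of WT_GFP and DKO_Sox9_het at 57.1% of Mst1_2_fl_GFP in linear CPM. The gap of DKO_Sox9_het from Mst1_2_fl_GFP was -0.71, with no overlap of libraries. It was less than the SD of the control, which carries the rescaling factor of 1.76 found for this gene. The gap ranged from -1.24 without the first control library to -0.18 without the second. Sox9_cko at 117% overlapped WT_GFP, and TKO_Sox9 at 504% lay above Mst1_2_fl_GFP. The difference of 2 from 1 alleles was 4.65 in the YAP experiment and 3.06 in the Mst experiment (SE 0.45 each), or 25.1-fold and 8.34-fold higher. The YAP fold rests on Sox9_het libraries that both stood at 0.299 CPM, and with 1 CPM added to every value that log2 difference was 2.72. The means ran upward through Sox9_het (-1.74), DKO_Sox9_het (1.94 ± 0.06), Mst1_2_fl_GFP (2.65 ± 0.75), WT_GFP (2.69 ± 0.54), Sox9_cko (2.91 ± 0.62) and TKO_Sox9 (5.0 ± 0.69), and the controls and Sox9_cko were within their spread (SD, n = 2).

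Rnf187 encodes a RING-finger ubiquitin ligase, also known as RACO-1, that acts as a coactivator of the AP-1 factor c-Jun. It lies at 58932288 to 58938916 on the minus strand, 53.8 Mb from Sox9, 10.2 Mb from Vamp2 and 0.268 Mb from 2610507I01Rik between starts. Rnf187 stood at log2 CPM 5.97 and 6.74 in Sox9_cko, 4.41 and 4.03 in Sox9_het and 6.44 and 5.92 in WT_GFP libraries. It stood at 7.90 and 7.36 in TKO_Sox9, 6.06 and 5.93 in DKO_Sox9_het and 5.83 and 6.49 in Mst1_2_fl_GFP libraries. In the YAP experiment the 1-allele libraries were the ones away from the control, and in the Mst experiment the 2-allele libraries were. Sox9_cko was at 115% and Sox9_het at 25.6% of WT_GFP in linear CPM, and TKO_Sox9 was at 273% and DKO_Sox9_het at 86.9% of Mst1_2_fl_GFP. The difference of 2 from 1 alleles was 2.13 in the YAP experiment and 1.63 in the Mst experiment (SE 0.31 each). Sox9_het (4.22 ± 0.27) was the lowest group and TKO_Sox9 (7.63 ± 0.38) the highest, while DKO_Sox9_het (6.0 ± 0.09), Mst1_2_fl_GFP (6.16 ± 0.47), WT_GFP (6.18 ± 0.36) and Sox9_cko (6.36 ± 0.54) did not differ beyond their spread (SD, n = 2).

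**Figure D1:**
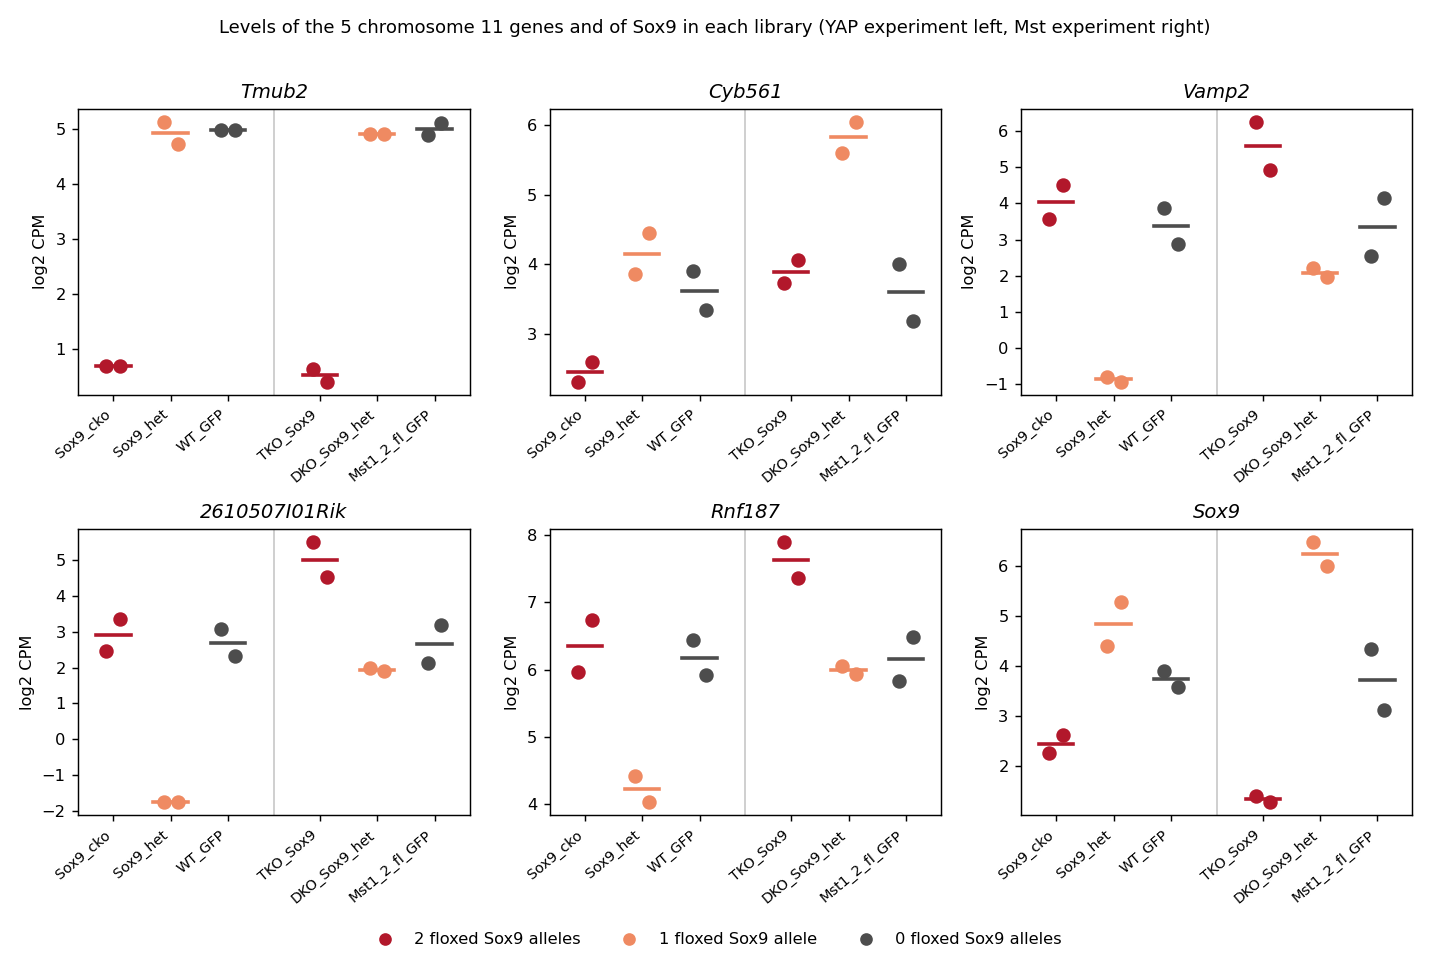
Level of each of the 5 genes and Sox9 (log2 CPM, vertical axis) in the 2 libraries of each group (points; bars mark group means), with 2, 1 and 0 floxed Sox9 alleles from left to right in each experiment. Tmub2 is low in the 2-allele groups alone, and Vamp2, Rnf187 and 2610507I01Rik dip in Sox9_het.

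The stretches at the starts of Rnf187 and 2610507I01Rik are shown, from 250 bases before to 50 after the start (RefSeq, GRCm38.p6, 5′ to 3′ on the minus strand). The starts lie 0.268 Mb apart, and a control shared by both genes was not tested. These 2 of the 5 genes had an entry. The capitals mark the only match to 1 of the 3 motifs searched.
Rnf187 (chr11:58938857-58939156): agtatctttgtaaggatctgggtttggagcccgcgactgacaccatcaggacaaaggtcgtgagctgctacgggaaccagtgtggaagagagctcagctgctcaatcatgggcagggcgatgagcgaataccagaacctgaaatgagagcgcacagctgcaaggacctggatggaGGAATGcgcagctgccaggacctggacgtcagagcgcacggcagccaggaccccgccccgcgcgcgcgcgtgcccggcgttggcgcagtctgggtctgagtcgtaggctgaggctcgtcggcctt
2610507I01Rik (chr11:59202382-59202681): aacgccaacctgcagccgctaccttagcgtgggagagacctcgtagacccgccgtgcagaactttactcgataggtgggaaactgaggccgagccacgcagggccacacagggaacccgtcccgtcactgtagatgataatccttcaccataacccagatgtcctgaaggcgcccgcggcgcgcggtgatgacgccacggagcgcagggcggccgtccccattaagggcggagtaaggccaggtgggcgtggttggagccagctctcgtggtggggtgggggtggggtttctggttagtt
The capitals in Rnf187 are GGAATG, the core bound by TEAD factors, the DNA-binding partners of YAP, which 14.7% of all 32851 such stretches hold on either strand. The SOX core ACAAT was found in neither and is held by 31.0% of stretches, and the AP-1 motif TGANTCA was found in neither and is held by 7.81%. Both stretches were rich in CpG, with 24 in Rnf187 and 25 in 2610507I01Rik against a median of 7. Of all such stretches, 80.0% held fewer than Rnf187 and 81.6% fewer than 2610507I01Rik, so such counts are common.

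Vamp2, Rnf187 and 2610507I01Rik ran nearly in parallel over the 12 libraries. Pearson's r was 0.987 for Vamp2 with 2610507I01Rik, 0.988 for Rnf187 with 2610507I01Rik and 0.974 for Vamp2 with Rnf187. For each of the 3 genes, the most like pair of genes among all kept genes was the other two of the trio, and the next was Mcph1 on chromosome 8 (r 0.910 with Vamp2, 0.930 with Rnf187 and 0.923 with 2610507I01Rik). These correlations share the group differences by which the genes were chosen. The order of the 2 libraries inside a group was not used in that choice. The library with more Vamp2 also had more Rnf187 in 6 of 6 groups and more 2610507I01Rik in 5 of 6, with 2610507I01Rik equal in both Sox9_het libraries. The same order as Vamp2 in all 6 groups was seen in 226 of 10680 kept genes (2.12%). Deviations were themselves correlated between groups of the Mst experiment across genes (r -0.644 between TKO_Sox9 and DKO_Sox9_het), so these 6 groups are not 6 separate observations.

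Tmub2 and Cyb561, the pair that was lower with 2 alleles, were less alike. Their r was 0.480 over the 12 libraries, and r with Sox9 was 0.791 for Tmub2 and 0.734 for Cyb561. The genes most like Tmub2 were Nfkbia (r 0.892), Coq3 (0.835) and Zfp938 (0.818), and those most like Cyb561 were Sec13 (0.933), Lace1 (0.863) and Qsox1 (0.861). None of these 6 lies on chromosome 11.

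The difference of 2 from 1 alleles was set side by side between the experiments. The YAP difference lay above the Mst difference by 0.14 for Tmub2 (SE 0.38), 0.24 for Cyb561 (SE 0.47) and 0.51 for Rnf187 (SE 0.44). The gap was 1.41 for Vamp2 (SE 0.75) and 1.59 for 2610507I01Rik (SE 0.64). Over all 10681 kept genes limma called 0 for this gap at an adjusted p under 0.05, with 322 at an unadjusted p under 0.05.

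Against all kept genes, the 5 stood at the edge of the distribution that they were chosen from. Limma called 18 genes between Sox9_cko and Sox9_het (0.169% of 10681; adjusted p under 0.05, Benjamini-Hochberg), of which 12 rose and 6 fell in Sox9_cko. Between TKO_Sox9 and DKO_Sox9_het it called 5 (0.0468%), of which 2 rose and 3 fell in TKO_Sox9. Averaged over both experiments it called 14 (0.131%), 10 higher and 4 lower with 2 alleles. The Mst calls were 3 of the 5 genes, Sox9 and Sec22a on chromosome 16, which is named after its values were seen and encodes a protein of vesicle traffic. Sec22a stood at log2 CPM 3.30 and 3.00 in TKO_Sox9 and 5.71 and 5.24 in DKO_Sox9_het libraries. It fell by 2.33 on the log2 scale in TKO_Sox9 (SE 0.33, adjusted p = 0.0114, limma). Its call was lost without the first DKO_Sox9_het library or the second TKO_Sox9 library (adjusted p = 0.05003 and 0.111, limma), with no filter on low values (0.245) and with a fit of the Mst experiment alone (0.431). Of the 5 genes, 4 were among the calls in the YAP experiment (all but Cyb561), 3 in the Mst experiment (Tmub2, Vamp2 and 2610507I01Rik) and 5 in the average, and since the choice used these contrasts nothing is read from these counts. By size of the average difference, Tmub2 ranked 1, Vamp2 2, 2610507I01Rik 3, Sox9 4, Rnf187 10 and Cyb561 12.

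Without a test, 8 of 10681 kept genes (0.0749%) had no overlap between 2 and 1 alleles and a difference of at least 1.5 in the same direction in both experiments. They were the 5 genes, Sox9, Elovl3 on chromosome 19 (-1.71 in the YAP and -2.05 in the Mst experiment), a fatty acid elongase, and Ehd2 on chromosome 7 (1.90 and 1.57), a caveolar ATPase. Both Elovl3 and Ehd2 are named after their values were seen. Of the 5 genes, Rnf187 and Cyb561 were nearest to the limit inside it, and Usp43 (chromosome 11; 1.44 and 1.41) was nearest outside. Membership of the 8 changed when 1 library was omitted, the scaling was changed or 1 CPM was added to every value. Cyb561 left without the second Sox9_het library (-1.40 in the YAP experiment), and Rnf187 left without the first TKO_Sox9 library (1.36 in the Mst experiment) and with equal library medians. Elovl3 left without the first Sox9_cko library (-0.52 in the YAP experiment) or the first TKO_Sox9 library (-1.24 in the Mst experiment). Ehd2 left without the second Sox9_cko library (1.39 in the YAP experiment) or the first DKO_Sox9_het library (1.37 in the Mst experiment). Ehd2 also left with equal library medians (1.44 in the Mst experiment) and with quantile normalization (1.38 in the Mst experiment). With 1 CPM added, Elovl3 fell short of the limit in the YAP experiment and Ehd2 in the Mst experiment. Without the limit on size, 783 kept genes (7.33%) qualified: 707 (6.62%) lay higher and 76 (0.712%) lower with 2 alleles in both experiments with no overlap, and chromosome 11 held 66 of its 867 (7.61%), inside the range of 5.92% to 9.6% over the other chromosomes. The median difference of all kept genes was 0.15 in the YAP and 0.09 in the Mst experiment, and -0.02 and -0.04 with equal library medians. The counts by direction were not recomputed on that scale.

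**Figure D2:**
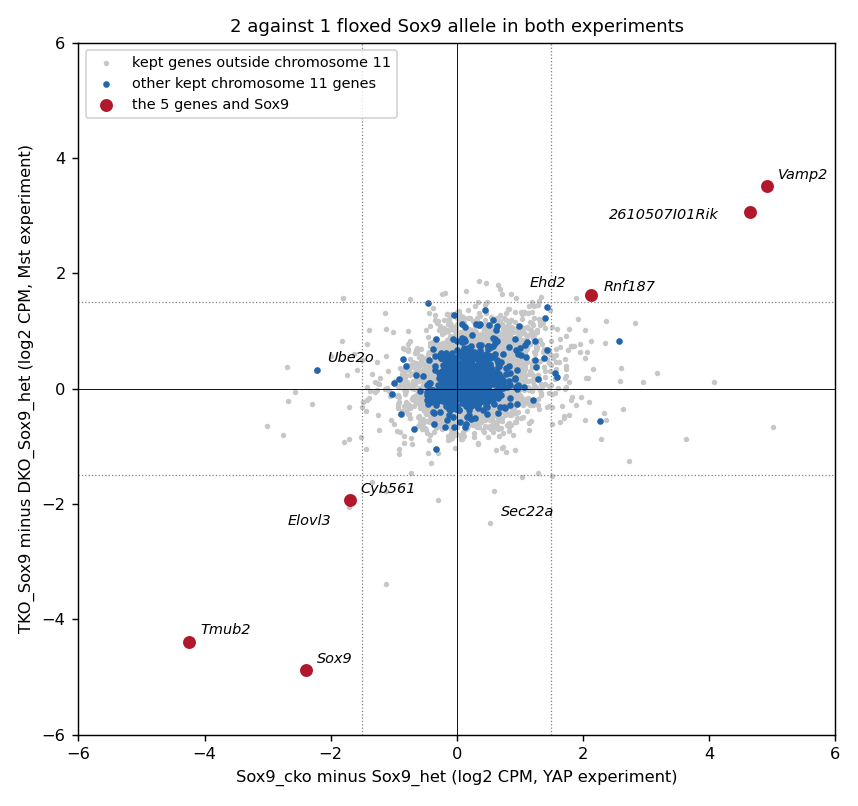
Difference of 2 from 1 floxed allele (log2 CPM) in the YAP experiment (horizontal) and the Mst experiment (vertical), 1 point per kept gene, with chromosome 11 genes in blue and the 5 genes and Sox9 in red. Dotted lines mark 1.5, and 8 genes lie beyond both lines in the same direction with no overlap of libraries.

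The pattern for which the genes were proposed, a step at each added allele, was found in other genes. In 114 kept genes (1.07%) the libraries rose or fell without overlap over 0, 1 and 2 alleles in both experiments, 112 of them upward and 2 downward, and none of the 5 was among them. The 2 downward genes, named after their values were seen, were Glul, the glutamine synthetase of hepatocytes around the central vein, and Gucy2c, a membrane guanylate cyclase. Chromosome 11 held 9 of the 114, and it holds 867 (8.12%) of the 10681 kept genes. Ranked by the smaller of their YAP and Mst differences of 2 from 1, the first 10 were all higher with more alleles: Usp43, Rragd, Fgd3, Racgap1, Ckap2, Prc1, Ifit2, H19, Abcc5 and Dmpk, among which Racgap1, Ckap2 and Prc1 act in cell division. Usp43, the sole chromosome 11 gene of the 10, stood at log2 CPM 3.36 and 4.36 in Sox9_cko, 2.65 and 2.20 in Sox9_het and 1.49 and 1.69 in WT_GFP libraries, and at 4.18 and 3.54 in TKO_Sox9, 2.01 and 2.89 in DKO_Sox9_het and 1.71 and 1.48 in Mst1_2_fl_GFP libraries. In these genes the step at the first allele also carries Cre and YAP activation. The counts of upward and downward genes carry the median shift of all kept genes given above.

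The other genes of chromosome 11 were set beside all kept genes. Of the 861 other kept genes on it, apart from Sox9, limma called 1 between Sox9_cko and Sox9_het and 0 between TKO_Sox9 and DKO_Sox9_het. At an unadjusted p under 0.05 there were 51 and 38 of them. Of the 10675 kept genes apart from the 5 and Sox9, 701 and 623 were at that level. The YAP share of 0.116% compares with 0.122% of the 10675 kept genes apart from the 5 and Sox9, and the YAP count ran from 0 to 9 when 1 library was left out and was 41 with the rescaling of deviations undone. Their median difference of 2 from 1 alleles was 0.16 in the YAP and 0.10 in the Mst experiment, and that of all kept genes was 0.15 and 0.09. From the 5th to the 95th percentile they ran from -0.32 to 0.74 in the YAP and from -0.29 to 0.69 in the Mst experiment. Within 20 Mb of Sox9, where Tmub2 and Cyb561 lie, 312 other genes gave 1 call in the YAP and 0 in the Mst experiment (20 and 13 at an unadjusted p under 0.05). Between 40 and 60 Mb, where Vamp2, Rnf187 and 2610507I01Rik lie, 189 genes gave 0 calls in each (17 and 9 unadjusted).

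The 1 call was Ube2o, which encodes a ubiquitin-conjugating enzyme that also acts as a ligase, 3.76 Mb from Sox9. It stood at log2 CPM 1.52 and 1.42 in Sox9_cko, 3.92 and 3.46 in Sox9_het and 3.84 and 3.08 in WT_GFP libraries, and at 3.80 and 3.29 in TKO_Sox9, 3.02 and 3.41 in DKO_Sox9_het and 3.41 and 3.52 in Mst1_2_fl_GFP libraries. Ube2o was low in Sox9_cko and not in TKO_Sox9, which has the same number of floxed alleles. It fell by 2.22 on the log2 scale in Sox9_cko against Sox9_het (SE 0.33, adjusted p = 0.00749, limma). Without the second Sox9_het library (adjusted p = 0.0621, limma) or either Sox9_cko library (0.0913 and 0.0713) the call was lost, as it was with a fit of the YAP experiment alone (0.0636) and with no filter on low values (0.13).

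**Figure D3:**
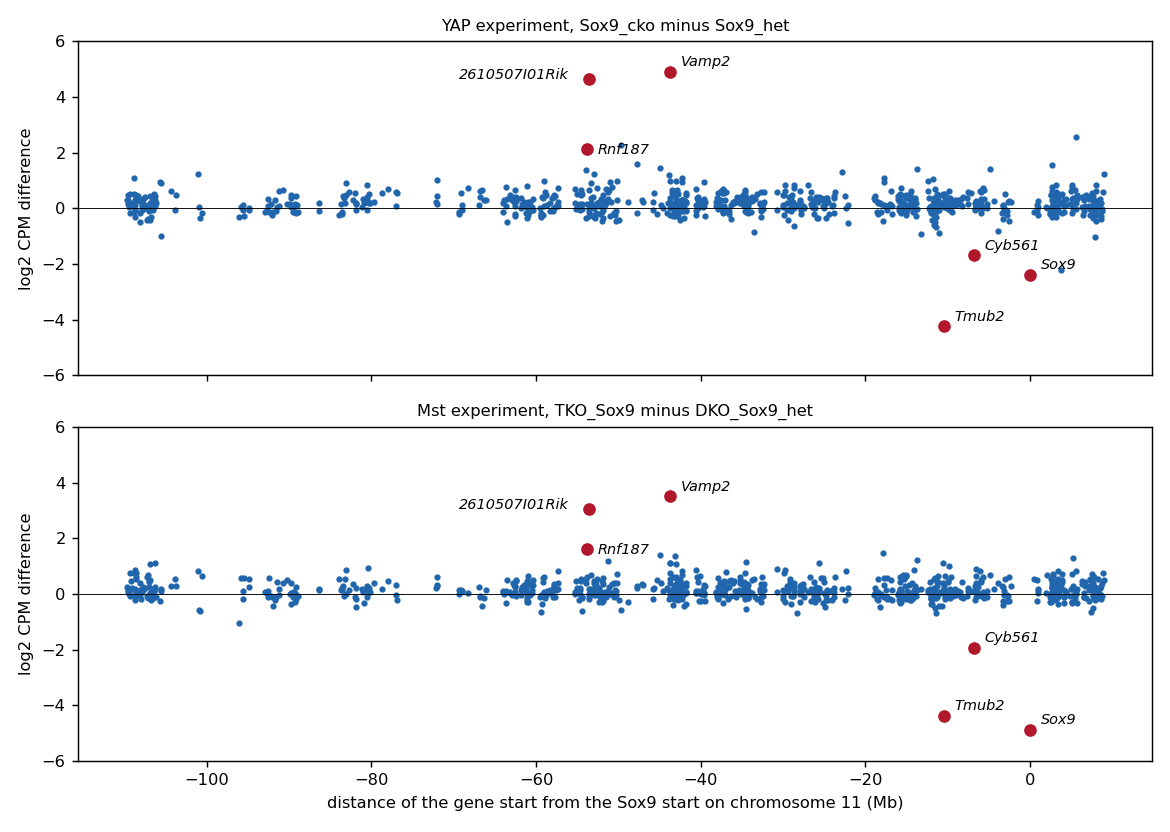
Difference of 2 from 1 floxed allele (log2 CPM, vertical) against distance from the start of Sox9 (Mb, horizontal) for kept genes of chromosome 11 in both experiments, with the 5 genes and Sox9 in red. Tmub2 and Cyb561 lie 10.5 and 6.85 Mb from Sox9, the other 3 between 43.7 and 53.8 Mb, and 1 other chromosome 11 gene, Ube2o, was called in the YAP experiment.

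The genes next to the 5 were examined in the same way. Of the 10 nearest kept genes, 1 on each side of each gene, limma called 0 in either experiment, and their adjusted p ran from 0.277 (Zfp39, YAP experiment) upward. Their differences of 2 from 1 alleles ran from -0.24 to 1.38 in the YAP and from -0.07 to 0.74 in the Mst experiment. Atxn7l3, a subunit of a histone deubiquitinating complex whose start is 4.37 kb from that of Tmub2, differed by 0.06 and 0.28 (SE 0.26). Hdac5, a histone deacetylase on the other side of Tmub2, differed by 0.12 and 0.14 (SE 0.30). Per1, a clock gene 6.73 kb from Vamp2, differed by -0.24 and 0.53 (SE 0.53). Mrpl55, a mitochondrial ribosomal protein gene whose start is 2.65 kb from that of 2610507I01Rik, differed by 0.13 and -0.07 (SE 0.25). Zfp39, the neighbour of Rnf187, was the highest at 1.38 in the YAP experiment (SE 0.37) and was 0.53 in the Mst experiment.

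**Figure D4:**
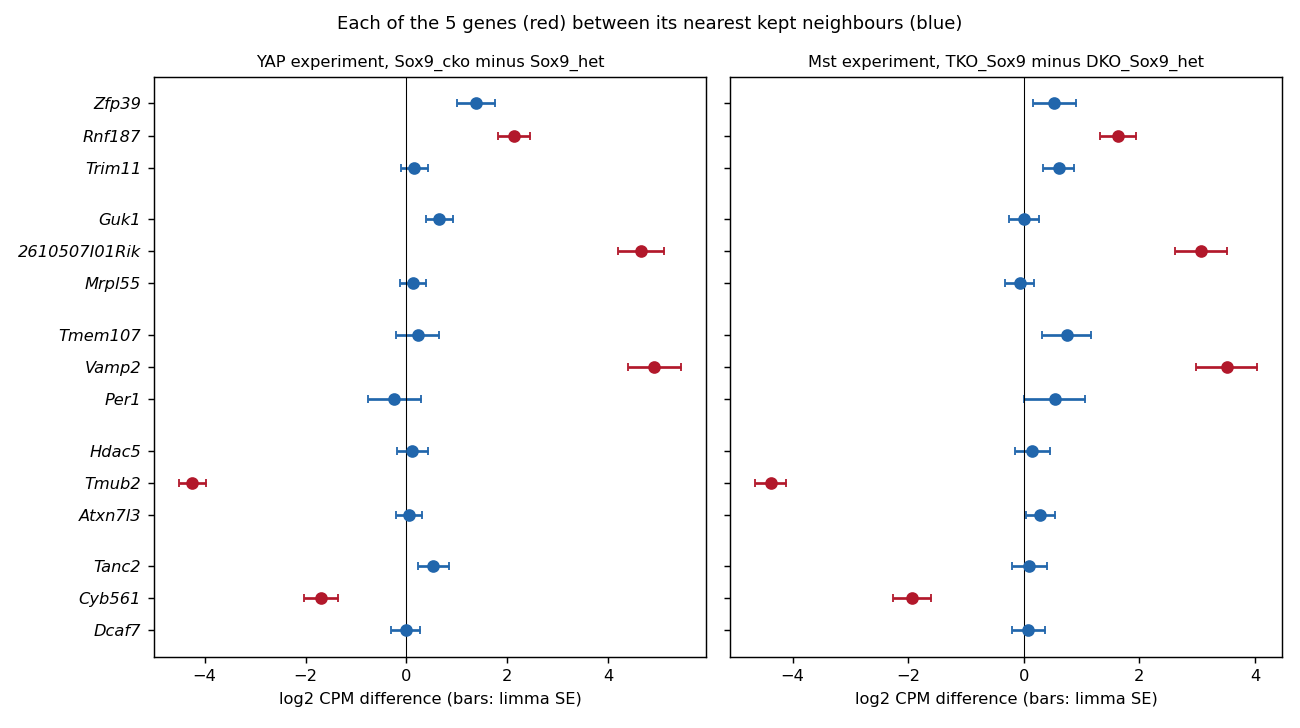
Difference of 2 from 1 floxed allele (log2 CPM ± limma SE) for each of the 5 genes and its nearest kept neighbour on each side, in both experiments. The neighbours lie between -0.24 and 1.38, and the 5 genes lie outside that range.

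Genes that act in the same processes as the 5 gave 1 call in all. Over all 10681 kept genes the called share was 0.169% in the YAP and 0.0468% in the Mst experiment. At an unadjusted p under 0.05 there were 707 and 629 of the 10681. Of the other Vamp family genes, 4 of 6 were kept and 0 called in either experiment (limma; 0 and 1 at an unadjusted p under 0.05), with a median difference of 0.40 in the YAP and 0.34 in the Mst experiment. Of the SNARE fusion machinery, 26 of 28 were kept and 0 called (0 and 1 unadjusted), with a median difference of 0.21 in the YAP and 0.04 in the Mst experiment. Of the ubiquitin-like and ER-associated degradation genes set beside Tmub2, 14 of 15 were kept and 0 called (1 and 1 unadjusted), and Tmub1, its nearest relative, differed by 0.18 and 0.14. Of the cytochrome b561 family and ascorbate genes set beside Cyb561, 8 of 9 were kept and 0 called (1 and 0 unadjusted), from -0.89 for Gulo to 0.39 for Steap3 in the YAP experiment. Of 12 kept AP-1 and JNK genes set beside Rnf187, 1 passed the test. Fos fell by 2.57 in Sox9_cko against Sox9_het (SE 0.45, adjusted p = 0.0274, limma) and differed by -0.05 between TKO_Sox9 and DKO_Sox9_het. Without any 1 of the 4 Sox9_cko and Sox9_het libraries the Fos call was lost, with an adjusted p up to 0.254 (limma). It was also lost with no filter on low values (0.496), with a prior variance without trend (0.138) and with a fit of the YAP experiment alone (0.0559). Of 6 neuronal and neuroendocrine markers, cells in which Vamp2 and Cyb561 are abundant, 5 were in the table, and 4 of these stood below log2 0 in every group. The fifth, Syt1, the calcium sensor of vesicle fusion, averaged log2 CPM 3.76 in Sox9_cko, 3.89 in Sox9_het and 4.12 in WT_GFP, and 4.32 in TKO_Sox9, 3.03 in DKO_Sox9_het and 4.13 in Mst1_2_fl_GFP. Its difference of 2 from 1 alleles was -0.13 in the YAP experiment (adjusted p = 0.971, limma) and 1.28 in the Mst experiment (SE 0.31, adjusted p = 0.444, limma). The Mst difference was at an unadjusted p under 0.05.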

How the data were processed

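RNA of sorted mouse hepatocytes was read with the Ion AmpliSeq mouse transcriptome panel on an Ion S5 instrument, per the labels. The authors deposited log2 CPM values for 16116 genes in 12 libraries; no source used here names the aligner, the build or later adjustments. Read counts, and so the depth of a library, are not known. Of these genes, 10681 with log2 of at least 1 in 2 libraries were kept. In R 4.3.3, limma 3.58.1 fitted group means to the deposited log2 values of the 12 libraries (trended prior variance), with Benjamini-Hochberg adjustment over all kept genes and calls at adjusted p under 0.05, two-sided. In simulated data of 10681 genes, a log2 change of 2 was recovered in 94% (YAP comparison) and 96% (Mst comparison) of changed genes. A change of 4 was recovered in 100%, with 15 and 18 false calls beside them. The simulation changed 100 genes at each size, many more than were called here, and drew independent normal noise. The deposited deviations were rescaled and, in the Mst experiment, correlated between groups, so these shares may not apply to them. Positions came from GENCODE M21 by symbol (15760 genes, and 306 by an older symbol, with 50 unmatched).

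The 5 genes and the gene lists were chosen with earlier results of these data known. Besides the 5 and Sox9, named genes were the 10 stepwise genes ranked by the smaller of their differences in the experiments, the 3 most correlated genes per gene, called chromosome 11 and list genes, and nearest neighbours. Sec22a, Elovl3, Ehd2, Glul and Gucy2c were named after their values were seen. Alternatives left out each library, changed the filter, scaling, prior or pseudocount, undid the rescaling of deviations, or added a replicate block.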

Additional observations from a re-analysis of the deposited data

How the results depend on the processing

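Under 17 alternatives each, all 170 recomputed differences of 2 from 1 alleles in the 5 genes kept their sign. Of these, 160 stayed within 1 SD of the spread. Leaving out a library of another group or changing the filter cannot alter such a difference, so many of these repeats were fixed in advance. As the groups did not overlap, leaving out 1 of their libraries could not change the sign either. Adding 1 CPM gave smaller values for low genes, such as 2.72 for 2610507I01Rik and 3.50 for Vamp2 in the YAP experiment. Counts of calls depended on the processing far more, and the cause was not tested except where said. The main counts were 18 in the YAP experiment, 5 in the Mst experiment and 14 in the average.

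With no filter the counts were 5, 2 and 5, with 0 calls in the YAP experiment among other chromosome 11 genes and 0 within 20 Mb of Sox9. Quantile normalization gave 9 in the average. A prior variance without trend gave 6 in the YAP experiment and 8 in the average. Fits within 1 experiment, with fewer libraries, gave 9 in the YAP experiment (0 within 20 Mb) and 2 in the Mst experiment. Adding 1 CPM gave 1 call in the average among other chromosome 11 genes, and this 1 lay within 20 Mb. With the deviations put back before their rescaling, the YAP count was 466 (41 among other chromosome 11 genes, 18 within 20 Mb), the Mst count 181 (9 and 3) and the average 814 (55 and 22), and stepwise genes numbered 437, of them 38 on chromosome 11. Equal library medians left 5 stepwise genes on chromosome 11 of 9, and set the median difference of all kept genes at -0.02 in the YAP and -0.04 in the Mst experiment, against 0.15 and 0.09 as deposited.

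Same-numbered libraries did not deviate together (r across genes -0.117 to -0.0627 in the YAP and -0.644 to -0.315 in the Mst experiment). A replicate block, for which the numbers thus give no pairing, gave 39 calls in the YAP experiment, 7 in the Mst experiment and 41 in the average, with 1 within 20 Mb in the average. A block with the TKO_Sox9 numbers crossed, added after seeing the data, gave 17, 6 and 16.

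Leaving out 1 library at a time gave 4 (without the second Sox9_het library) to 128 calls (without the first) in the YAP experiment, with 0 to 9 among other chromosome 11 genes and 0 to 5 within 20 Mb. It gave 3 to 20 in the Mst experiment (without the second and the first DKO_Sox9_het library), with 0 on the rest of chromosome 11. In the average it gave 6 (without the second Sox9_cko library) to 115 (without the first Sox9_het library), with 0 to 11 and 0 to 4. Stepwise genes, 114 with all libraries, ran from 131 to 253, since a lone library overlaps less readily, and on chromosome 11 from 9 to 23. Genes apart by 1.5 ran from 7 to 10, and on chromosome 11 from 5 to 6. With 1 library left in a group, it is assumed to vary like the other groups.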
